A study of Mus musculus with 17 samples.

Results

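A set of 10 genes that STAT5 is known to control was followed across 5 groups of a mouse myeloid cell line with and without FLT3, out of 20227 genes measured. They were Cish, Socs1, Socs2, Socs3, Pim1, Pim2, Pim3, Osm, Bcl6 and Gadd45g, taken from a list of gene names, with no threshold on their differences between groups. Each gene was read as the average log2 signal of the probe sets annotated to that symbol alone, keeping those that averaged over 4.599 across the 17 arrays, the median of that average in the whole table. All 10 genes were measured, by between 4 probe sets (Osm) and 16 probe sets (Pim3).

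The study profiled 32D cells, an immortalised mouse myeloblast-like line that depends on IL-3, on Affymetrix exon arrays, and asked what mutant FLT3 does to their RNA. FLT3 is a growth factor receptor with tyrosine kinase activity, found on early blood cells, and an internal tandem duplication (ITD) is an activating mutation found in leukaemia. The ITD group held 9 lines with 9 different human FLT3/ITD mutants, 1 array each, numbered 1 to 9 here, grown without IL-3. The ligand group (2 arrays) carried human wild-type FLT3 and received FLT3 ligand at 20 ng/mL. The wild-type group (2 arrays) carried the same receptor without added ligand, the vector group (2 arrays) the empty pLXRN retrovirus, and the parental group (2 arrays) nothing. Mouse IL-3 was present at 1 ng/mL in the wild-type, vector and parental cultures. The ligand cultures came from the wild-type line, and the protocol does not state outright that IL-3 stayed in them. Taken literally, their label describes cells transduced with a ligand gene, but the culture description above was used. The transduced lines were mixed populations of infected cells, and the vector and wild-type lines were selected with G418. Because the ITD lines alone are stated to lack IL-3, an ITD and the absence of IL-3 cannot be told apart in any comparison of the ITD lines. The paired control arrays are called biological replicates, but nothing says that they came from separately made lines, so the spread within these pairs may be technical. In the fit to all groups the p-values rest on 1 spread shared by the 5 groups, which comes largely from the 9 ITD lines.

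When a cytokine receptor is engaged, its JAK kinases or the receptor kinase itself phosphorylate STAT5, which then enters the nucleus and switches on a set of early genes. CIS (from Cish) and the SOCS proteins act back on the receptor or its kinase and end the signal, while the PIM kinases carry it on towards survival and protein synthesis. IL-3 is a classical activator of STAT5 in 32D cells, and ITD receptors are known for activating STAT5 without ligand.

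STAT5 binds the palindrome TTCNNNGAA, and its favoured form is TTCCNGGAA, which is a subset of the same matches. RefSeq promoter windows (GRCm38.p6, 250 bases before to 50 after an annotated start) were at hand for 8 of the 10 genes, as 10 windows, and none was given for Socs2 or Osm. TTCNNNGAA reads the same on both strands, so 1 search covers both. It was found in 4 of the 10 windows, those of Cish, Socs3 and 2 starts of Bcl6, against 8.3% of all 32851 windows. Stretches from 1 window of each of these 3 genes are printed 5′ to 3′ on the strand of the gene with the motif in capitals. They are shown because all 3 genes were called against parental cells. Pim1 was called there too, and its 2 windows hold 0 matches. The Cish stretch is chr9:107296539-107296688 on the plus strand, the Bcl6 stretch chr16:23981284-23981463 on the minus strand and the Socs3 stretch chr11:117969367-117969536 on the minus strand.
Cish: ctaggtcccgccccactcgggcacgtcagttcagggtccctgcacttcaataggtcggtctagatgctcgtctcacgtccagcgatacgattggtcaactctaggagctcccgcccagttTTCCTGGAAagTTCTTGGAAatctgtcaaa
Bcl6: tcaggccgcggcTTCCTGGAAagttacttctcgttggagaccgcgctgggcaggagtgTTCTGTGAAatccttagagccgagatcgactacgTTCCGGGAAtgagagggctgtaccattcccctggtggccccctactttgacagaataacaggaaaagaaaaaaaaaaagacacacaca
Socs3: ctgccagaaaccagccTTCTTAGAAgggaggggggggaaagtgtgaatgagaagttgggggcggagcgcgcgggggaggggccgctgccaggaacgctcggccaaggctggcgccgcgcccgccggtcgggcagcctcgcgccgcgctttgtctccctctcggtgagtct
The Cish stretch holds TTCCTGGAA, beginning at base 1 of the transcript, and TTCTTGGAA, beginning at base 12. Of all windows, 0.457% hold 2 or more matches. The Bcl6 stretch holds 3 matches, TTCCTGGAA, TTCTGTGAA and TTCCGGGAA, beginning at positions -168, -122 and -88 from the start, and 0.0335% of all windows hold 3 or more. The narrower TTCCNGGAA lay in 2 of the 10 windows, those of Cish and this Bcl6 start, and in 1.15% of all windows. The Bcl6 window not shown holds 1 match to TTCNNNGAA. A match is a run of letters and does not show that STAT5 binds there, and a window without one says nothing about the factor.

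The Flt3 signal matched the labels. The introduced receptor is human and the probe sets are for the mouse gene, so how far they read it was not tested. The mouse Flt3 probe sets averaged 7.16 ± 0.08 (SD, n = 9) in ITD lines, 6.89 in ligand, 6.76 in wild-type, 5.19 in vector and 5.25 in parental cells. ITD lines were above wild-type cells by 0.39 (limma adjusted p = 0.0108). Markers of other blood lineages also differed between the groups, as the log2 of their summed signal. For mast cell and basophil markers (7 of 7 measured) it was 11.21 to 13.21 in ITD lines, 10.74 to 10.87 in ligand, 10.83 to 10.88 in wild-type, 12.42 to 12.46 in vector and 14.39 to 14.54 in parental cells. For eosinophil markers (4 of 5 measured) it was 10.35 to 13.26 in ITD lines, 8.17 to 8.40 in ligand, 7.99 to 8.14 in wild-type, 11.74 to 11.77 in vector and 13.72 to 13.80 in parental cells, with Ear6 under the signal threshold in ligand and Prg3 in wild-type cells. For mature neutrophil markers (8 of 8 measured) it was 11.61 to 13.33 in ITD lines, against 13.95 to 14.27 over the 8 control arrays. Monocyte and macrophage markers (7 of 7 measured) lay at 9.74 to 10.94 in ITD lines and 11.29 to 12.11 in the control arrays. Myeloid progenitor markers (7 of 8 measured) lay at 13.73 to 14.42 in ITD lines and 13.98 to 14.85 in the control arrays. Erythroid and megakaryocyte markers (6 of 7 measured) lay at 11.18 to 12.39 in ITD lines, above ligand (10.57 to 10.66), wild-type (10.42) and vector cells (11.13 to 11.16). In parental cells they lay at 12.08 to 12.09, and Hbb-b1 was under the signal threshold in vector cells. Lymphoid markers (4 of 6 measured) lay at 7.32 to 7.97 in ITD lines and 7.40 to 8.11 in the control arrays. The part of these shifts in the results that follow was not tested, and in bulk RNA fewer cells of a type and less RNA per cell cannot be told apart.

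Log2 differences are given as first group minus second with the fitted standard error (SE). A call needed an adjusted p under 0.05 (limma, Benjamini-Hochberg over all 20227 genes), with 1 spread shared by the 5 groups. Against parental cells 5 of the 10 genes were called in ITD lines, where 17% of all genes were called: Cish, Socs3, Pim1 and Osm were higher and Bcl6 lower. Of all genes 10.3% were called higher and 6.72% lower in that comparison. In ligand cells 6 of the 10 were called against parental cells (15.4% of all genes), with Cish, Socs2, Socs3, Pim1 and Osm higher (10.7% of all genes) and Bcl6 lower (4.66% of all genes). In wild-type cells 4 were called (14.6% of all genes), namely Cish, Socs2, Socs3 and Pim1, all higher, as were 9.05% of all genes. In ligand cells the calls of Cish and Pim1 against parental cells were lost in 0 and 1 of 29 other settings, and those of Osm, Bcl6, Socs2 and Socs3 in 4, 6, 7 and 8. In wild-type cells the calls of Socs3, Socs2, Pim1 and Cish were lost in 5, 6, 10 and 18 of 29. These 3 comparisons use the same 2 parental arrays. The median of the 10 genes against parental cells was 0.32 in ITD lines, 0.54 in ligand and 0.44 in wild-type cells, beside 0.01, 0.03 and 0.06 for all genes.

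Against vector cells, which carry the retrovirus but no FLT3, 2 of the 10 genes were called in ITD lines (14% of all genes): Osm was higher (8.82% of all genes) and Bcl6 lower (5.21% of all genes). In ligand cells 1 was called (10.6% of all genes), Bcl6, which was lower (2.4% of all genes). In wild-type cells 0 were called, beside 8.22% of all genes. An unadjusted limma p under 0.05 was seen for 2 of the 10 and for 4289 of all 20227 genes. Between vector and parental cells 0 were called as well, beside 2.23% of all genes. There 4 of the 10 and 2943 of all 20227 genes had an unadjusted limma p under 0.05. The median of the 10 genes was 0.27 for vector minus parental, so the comparison with parental cells also contains what differs between these 2 control lines.

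**Figure D1:**
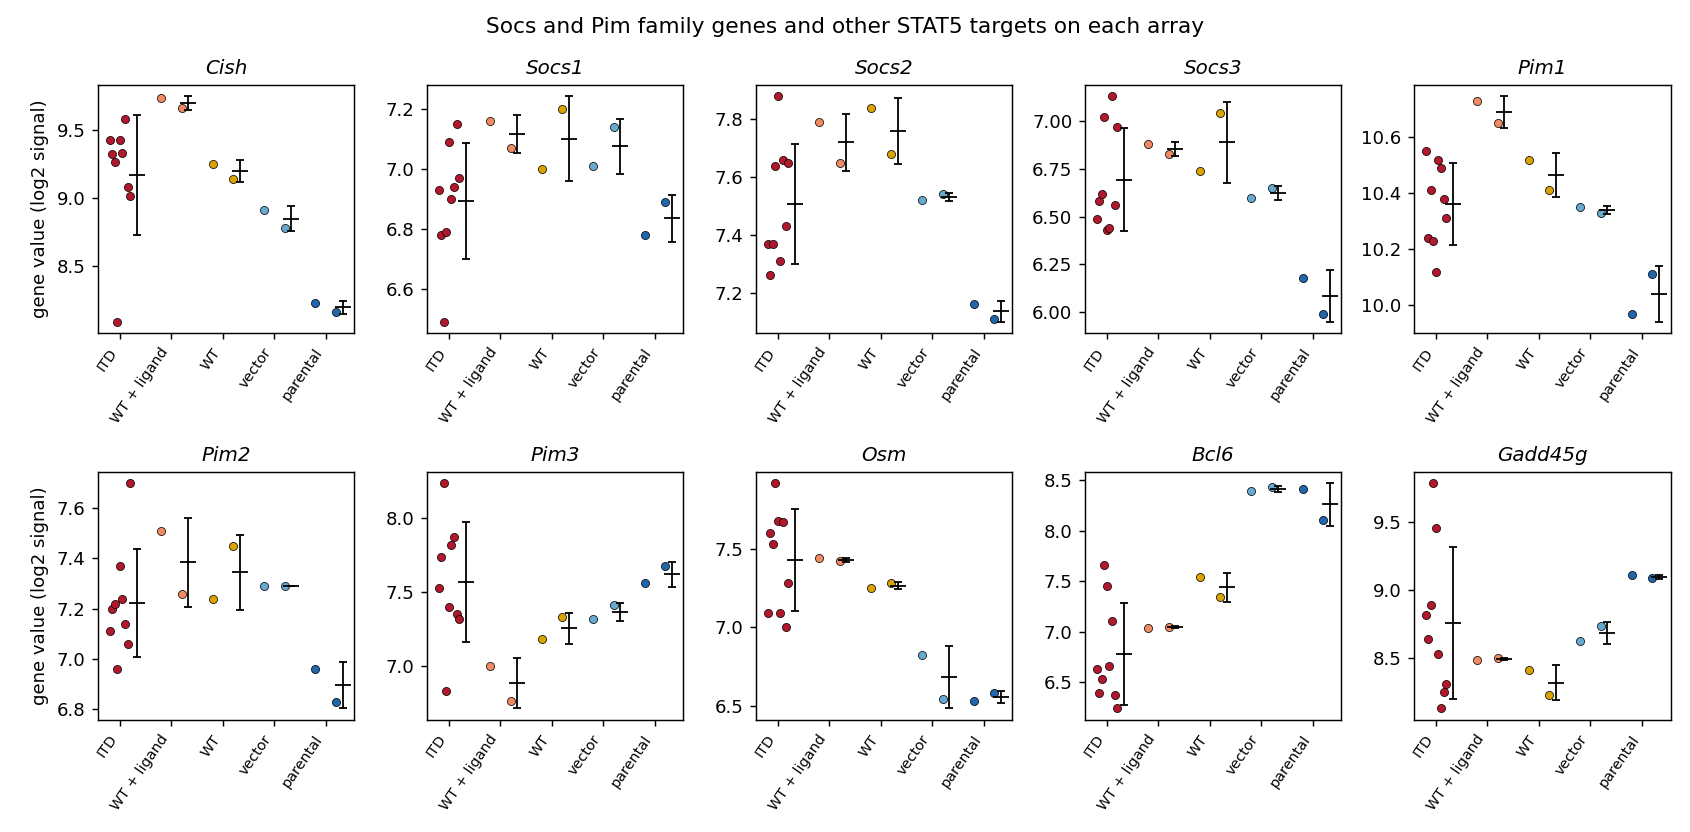
Log2 signal of each gene on each array, with 1 panel for each gene, arrays as points grouped from left to right as ITD, wild-type with ligand, wild-type, vector and parental, and the group mean ± SD drawn beside the points (each panel has its own log2 axis). For Bcl6 all 13 arrays with FLT3 lie below the 4 without it, and Cish is lowest in parental cells apart from ITD line 4 at 8.09.

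**Figure D2:**
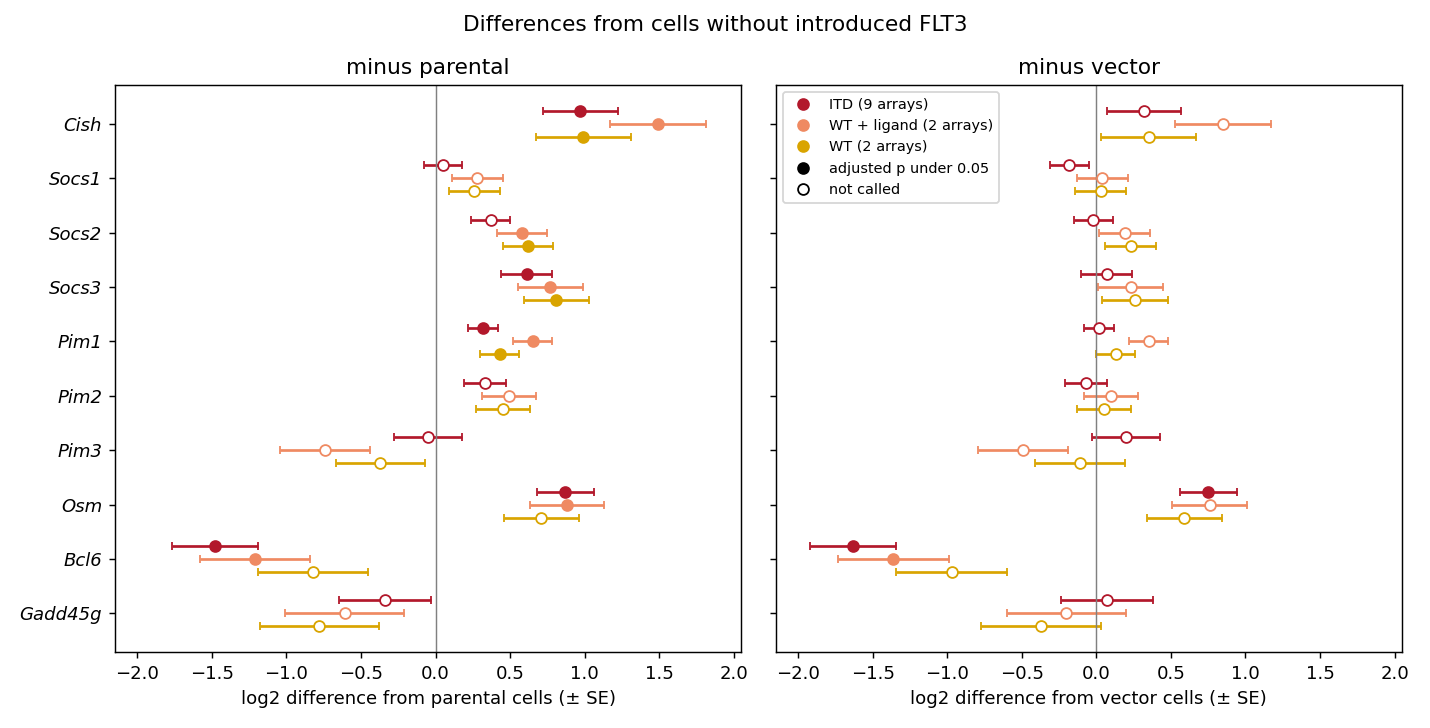
Log2 difference (± SE) of the ITD (9 arrays), wild-type with ligand (2) and wild-type (2) groups from parental cells on the left and from vector cells on the right, with filled points for an adjusted p under 0.05. More of the genes are called against parental than against vector cells, and Bcl6 is the gene with the lowest difference in both panels.

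Cish encodes CIS, which occupies receptor sites that STAT5 would use and is itself among the best known STAT5 targets. Its signal in the 9 ITD lines was lowest at 8.09, had a median of 9.32 and was highest at 9.58. It was 9.73 and 9.66 in ligand cells, 9.25 and 9.14 in wild-type, 8.91 and 8.78 in vector and 8.23 and 8.16 in parental cells. Ligand cells were thus above every other array, parental cells were below every array but that of ITD line 4, and 8 of the 9 ITD lines overlapped the range from vector to wild-type or lay between wild-type and ligand. The difference from parental cells was 0.97 ± 0.25 in ITD lines (a 1.96-fold signal, adjusted p = 0.012), 1.49 ± 0.32 in ligand cells (2.82-fold, adjusted p = 0.0038) and 0.99 ± 0.32 in wild-type cells (1.99-fold, adjusted p = 0.0457), all from limma. The ITD call was lost when either parental array was left out (adjusted p = 0.0917 and 0.135) and was kept in the other 25 of 27 settings. Of the 7 probe sets, 6 were higher and 1 lower in ITD lines than in parental cells, and the brightest stood at 11.27 in ITD lines and 10.28 in parental cells.

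Against the controls that carry a vector, Cish was not called in ITD lines. All ITD lines nevertheless lay below both ligand arrays, with 7 of 7 probe sets lower on average. ITD minus vector was 0.32 ± 0.25 (adjusted p = 0.431), ITD minus wild-type -0.03 ± 0.25 (adjusted p = 0.972) and ITD minus ligand -0.53 ± 0.25 (adjusted p = 0.263) by limma. The value of line 4 bears on each of them: without it ITD minus vector was 0.46 and was called (adjusted p = 0.0182), and ITD minus wild-type turned to 0.11. Ligand minus wild-type was 0.50 ± 0.32 (adjusted p = 0.758), although both ligand arrays were above both wild-type arrays.

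Socs2 and Socs3 were the other inhibitors that moved. SOCS3 blocks JAK kinases at receptors such as gp130, and SOCS2 is best known for restraining growth hormone signalling. Socs3 ran in ITD lines from 6.43 through a median of 6.58 to 7.13, against 6.88 and 6.83 in ligand, 6.74 and 7.04 in wild-type, 6.60 and 6.65 in vector and 6.18 and 5.99 in parental cells. Every other array was above both parental arrays. The difference from parental cells was 0.61 ± 0.17 in ITD lines (adjusted p = 0.019), 0.77 ± 0.22 in ligand cells (adjusted p = 0.0216) and 0.81 ± 0.22 in wild-type cells (adjusted p = 0.0176) in limma. That rise was not in the brightest probe set, where ITD minus parental was -0.01, and with a stricter signal threshold the ITD difference was 0.27 and no longer called (adjusted p = 0.258). It was not called either without a parental array (adjusted p = 0.0763 and 0.242).

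Socs2 was 7.26 at its lowest, 7.43 at its median and 7.88 at its highest in ITD lines, against 7.79 and 7.65 in ligand, 7.84 and 7.68 in wild-type, 7.52 and 7.54 in vector and 7.16 and 7.11 in parental cells. Here too every other array lay above the parental arrays. Ligand minus parental was 0.58 ± 0.17 (adjusted p = 0.0263) and wild-type minus parental 0.62 ± 0.17 (adjusted p = 0.019), while ITD minus parental was 0.37 ± 0.13 (adjusted p = 0.0652) by limma. Only 10 of its 17 probe sets passed the signal threshold. With all 17, wild-type minus parental was 0.23 (limma adjusted p = 0.505), ligand minus parental 0.54 and ITD minus parental 0.26, none of them called. ITD minus parental was called in 3 of 27 other settings. It was 0.53 with a stricter signal threshold (limma adjusted p = 0.00123) and 0.40 without line 2 (adjusted p = 0.0434). With the brightest probe set alone it was 0.64 (limma adjusted p = 0.000502). In that probe set wild-type minus parental was 1.16 and ligand minus parental 1.2, both still called. ITD minus wild-type was -0.25 ± 0.13 (limma adjusted p = 0.292), and its sign depended on the probe sets. It was -0.32 and called with array weights (adjusted p = 0.0388). With the brightest probe set alone, a setting added after the values were seen, it was -0.52 and called (adjusted p = 0.0068). It was 0.04 with all 17 and 0.14 with the median of the 10 that passed, both not called.

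Socs1 encodes the most direct inhibitor of JAK kinases in the family. It lay between 6.49 and 7.15 in ITD lines with a median of 6.93, against 7.16 and 7.07 in ligand, 7.0 and 7.20 in wild-type, 7.01 and 7.14 in vector and 6.78 and 6.89 in parental cells. The ITD range held the parental and most other control arrays, and Socs1 was called in none of the 10 pairwise comparisons of the fit to all groups. ITD minus wild-type was -0.21 ± 0.13 (limma adjusted p = 0.379).

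The 3 Pim genes encode serine/threonine kinases that promote survival and growth and overlap in their targets. Pim1 stood at 10.12 to 10.55 in ITD lines with a median of 10.38, against 10.73 and 10.65 in ligand, 10.52 and 10.41 in wild-type, 10.35 and 10.33 in vector and 9.97 and 10.11 in parental cells. Ligand cells were above all other arrays and parental cells below all others. Ligand minus parental was 0.65 ± 0.13 (adjusted p = 0.00211), with 14 of 14 probe sets higher. Wild-type minus parental was 0.43 ± 0.13 (adjusted p = 0.0325) and ITD minus parental 0.32 ± 0.10 (adjusted p = 0.0365) by limma. The ITD call was lost in 12 of 27 other settings, among them the brightest probe set with a difference of 0.09. ITD minus ligand was -0.33 ± 0.10 (adjusted p = 0.0647), with 13 of 14 probe sets lower.

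Pim2, the family member often described as raised by ITD receptors in 32D cells, was called in none of the 10 comparisons of the fit to all groups. It ran from 6.96 through a median of 7.20 to 7.70 in ITD lines, against 7.51 and 7.26 in ligand, 7.24 and 7.45 in wild-type, 7.29 and 7.29 in vector and 6.96 and 6.83 in parental cells. ITD line 4 was level with the higher parental array, and the other ITD lines lay above both parental arrays and overlapped the remaining controls. ITD minus parental was 0.33 ± 0.14 (limma adjusted p = 0.133), with 8 of 11 probe sets higher. It was called in 2 of 27 other settings, at 0.46 with a stricter signal threshold (limma adjusted p = 0.0381) and 0.32 with array weights (adjusted p = 0.041). Ligand minus parental was 0.49 ± 0.18 (limma adjusted p = 0.0821) and was called in 6 of 29 other settings.

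Pim3 ran the other way in the controls. It was 6.83 to 8.24 in ITD lines with a median of 7.53, against 7.0 and 6.76 in ligand, 7.18 and 7.33 in wild-type, 7.32 and 7.41 in vector and 7.56 and 7.68 in parental cells. The ligand pair was the lowest of the controls, and among the ITD lines line 4 alone reached it. ITD minus ligand was 0.69 ± 0.23 (adjusted p = 0.103), with 15 of 16 probe sets higher, and without line 4 it was 0.78 and called (adjusted p = 0.0196). The brightest probe set differed by only 0.06, at 9.21 in ITD lines and 9.15 in ligand cells. Ligand minus parental was -0.74 ± 0.30 (limma adjusted p = 0.117), with 15 of 16 probe sets lower and the brightest at -0.38.

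**Figure D3:**
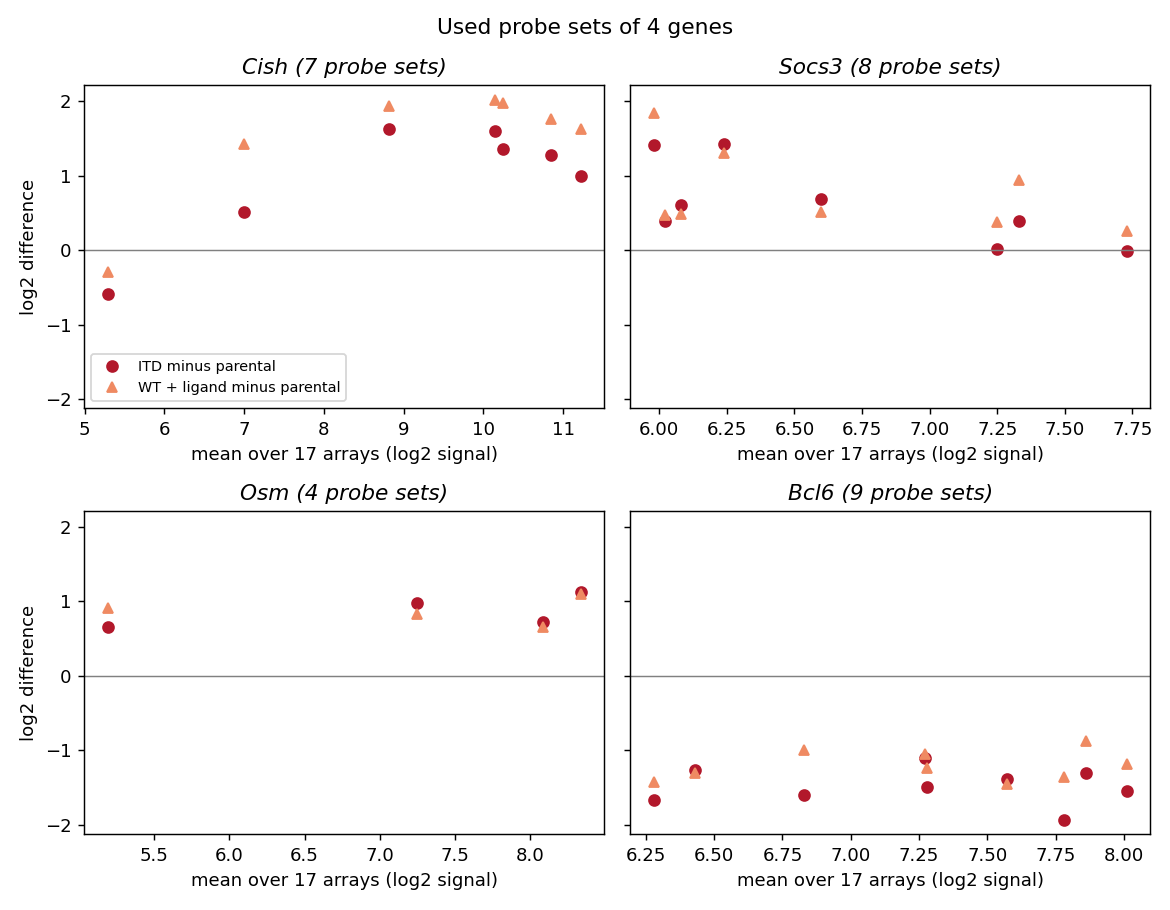
Log2 difference from parental cells (y axis) of each probe set used for Cish, Socs3, Osm and Bcl6, in ITD lines (circles) and wild-type cells with ligand (triangles), against its mean log2 signal over 17 arrays (x axis). All 9 probe sets of Bcl6 were lower and all 4 of Osm higher in ITD lines than in parental cells, while for Socs3 the differences spread between -0.01 and 1.43.

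Osm encodes oncostatin M, a cytokine of the IL-6 family whose gene responds early to STAT5 in blood cells. Its signal in ITD lines was 7.0 at the lowest, 7.53 at the median and 7.92 at the highest, against 7.44 and 7.42 in ligand, 7.25 and 7.28 in wild-type, 6.82 and 6.54 in vector and 6.53 and 6.58 in parental cells. Every array with FLT3 lay above all 4 without it. ITD lines differed from vector cells by 0.75 ± 0.19 (1.68-fold, adjusted p = 0.0144) and from parental cells by 0.87 ± 0.19 (1.83-fold, adjusted p = 0.00416). Ligand minus parental was 0.88 ± 0.25 (adjusted p = 0.0215), while ligand minus vector was 0.76 ± 0.25 (adjusted p = 0.0593), wild-type minus vector 0.59 ± 0.25 (adjusted p = 0.163) and wild-type minus parental 0.71 ± 0.25 (adjusted p = 0.0634), all by limma. The ITD call against vector was lost without either vector array (adjusted p = 0.0709 and 0.236) and that against parental cells without either parental array (adjusted p = 0.0625 and 0.057). All 4 probe sets were higher in ITD lines in both comparisons, by 0.01 to 1.25 against vector and 0.65 to 1.13 against parental cells.

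Bcl6 encodes a transcriptional repressor, and STAT5 is known to turn this gene down in other blood cells. Its signal in ITD lines was 6.24 at the lowest, 6.63 at the median and 7.66 at the highest, against 7.04 and 7.05 in ligand, 7.54 and 7.34 in wild-type, 8.39 and 8.43 in vector and 8.41 and 8.11 in parental cells. All 13 arrays with FLT3 lay below all 4 without it. ITD minus vector was -1.63 ± 0.29 (0.32 times the signal, adjusted p = 0.00129) and ITD minus parental -1.48 ± 0.29 (0.36 times, adjusted p = 0.00164). Both calls held in each of the 27 other settings, leaving out single arrays included, and all 9 probe sets were lower in both. Ligand cells were lower as well, by a difference of -1.36 ± 0.37 from vector (adjusted p = 0.0255) and -1.21 ± 0.37 from parental cells (adjusted p = 0.0327). These ligand calls were lost without either array of either group, with adjusted p up to 0.178. Wild-type minus vector was -0.97 ± 0.37 (adjusted p = 0.12) and wild-type minus parental -0.82 ± 0.37 (adjusted p = 0.166), and ITD minus wild-type was -0.66 ± 0.29 (adjusted p = 0.187) by limma. The mean of 8 mature neutrophil markers followed the group order of Bcl6, but single markers did not all do so. S100a9 was 12.90 in wild-type and 12.74 in ligand cells, against 12.34 in vector and 11.90 in parental cells. In wild-type against parental cells 1 of the 8 was called higher and 2 lower, with a median difference of 0.09. The part of these markers in the Bcl6 result was not tested. The mean log2 signal of the 8 markers was 7.35 to 8.76 in ITD lines, 8.75 to 8.87 in ligand, 9.01 to 9.12 in wild-type, 9.51 in vector and 9.40 to 9.50 in parental cells. In ITD lines 0 of the 8 were called higher and 4 lower against vector cells, and in ligand cells 0 higher and 2 lower, Ly6g (-3.01 ± 0.46, adjusted p = 0.00112) and Mmp9 (-0.85 ± 0.15, adjusted p = 0.0031) by limma. Their summed signal, which the brightest markers dominate, was 13.99 to 14.11 in ligand cells and 14.04 to 14.05 in vector cells. It was highest in wild-type cells, at 14.20 to 14.27, and lay at 13.95 to 14.16 in parental cells.

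Gadd45g encodes a small stress and growth arrest protein that cytokines induce. It ran from 8.13 through a median of 8.64 to 9.79 in ITD lines, against 8.49 and 8.50 in ligand, 8.41 and 8.23 in wild-type, 8.63 and 8.74 in vector and 9.11 and 9.09 in parental cells. The ITD range held all 8 control arrays. Gadd45g was called in none of the 10 comparisons of the fit to all groups, with ITD minus parental at -0.34 ± 0.31 (adjusted p = 0.54) and wild-type minus parental at -0.78 ± 0.40 (adjusted p = 0.238) by limma. Its 6 probe sets were all lower in ITD lines than in parental cells, by between -0.56 and -0.17.

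The wild-type and ligand cells carry human FLT3, as the mutants do. Between ITD lines and wild-type cells 0 of the 10 genes were called by limma, where 7.71% of all genes were. An unadjusted limma p under 0.05 was seen for 1 of the 10 and for 4436 of all 20227 genes. The differences ran from -0.66 for Bcl6 to 0.44 for Gadd45g (adjusted p = 0.458). Against ligand cells 0 were called, where 5.8% of all genes were. There 2 of the 10 and 3887 of all 20227 genes had an unadjusted limma p under 0.05. A p above the threshold does not show that the levels are alike.

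The ligand question, cells with FLT3 ligand against the same line without it, rested on 2 arrays each. Limma called 0 of the 10 genes and 0 of all genes, with 1555 of all genes and 0 of the 10 at an unadjusted p under 0.05. The spread in that fit comes largely from the 9 mutants, which supply 8 of its 12 residual degrees of freedom. With the 8 control arrays fitted alone, the spread comes from within the control pairs. It may be technical, so the SE and p-values of that fit may be too small. There 1 of the 10 genes was called for ligand minus wild-type, Cish, at 0.50 ± 0.08 (limma adjusted p = 0.00796), where 5.68% of all genes were. Its probe sets were higher with ligand in 6 of 7. In that fit 9 of the 10 genes were called in ligand against parental cells (28.8% of all genes), Socs1 being the exception (adjusted p = 0.0964), with Cish, Socs2, Socs3, Pim1, Pim2 and Osm higher and Pim3, Bcl6 and Gadd45g lower. In wild-type against parental cells, which uses the same parental arrays, 9 were called (27.9% of all genes), with Cish, Socs2, Socs3, Pim1, Pim2 and Osm higher and Pim3, Bcl6 and Gadd45g lower. Against vector cells 5 were called in ligand cells (26.4%), with Cish, Pim1 and Osm higher and Pim3 and Bcl6 lower. In wild-type cells 4 were called against vector cells (23%), with Cish and Osm higher and Bcl6 and Gadd45g lower. Between vector and parental cells 5 were called (13.7%), with Cish (0.65, adjusted p = 0.00086), Socs2, Socs3 and Pim1 higher and Gadd45g lower.

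The spread of the 9 ITD lines was described against that of the controls. The variance over the lines was set against the pooled variance within the 4 control pairs by a one-sided F ratio, adjusted over all genes, and 1 of the 10 genes was called, Gadd45g, where 2.55% of all genes were. Its SD was 0.56 over the ITD lines and 0.07 within control pairs (ratio 58.6, adjusted p = 0.0427). Cish followed at 0.44 over the ITD lines and 0.07 within pairs (adjusted p = 0.0515), then Bcl6 at 0.51 and 0.13 (adjusted p = 0.0993) and Pim3 at 0.41 and 0.11 (adjusted p = 0.112). The lines were made separately, while the spread within pairs may be technical, so the ratio compares different kinds of spread. The Gadd45g call was lost without line 4, without line 7 and without any single control array. The smallest ratio was that of Pim2, at 2.96 (adjusted p = 0.365).

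Line 4 stood at an extreme of the ITD lines in 6 of the 10 genes, while the other lines did so in 0 to 3. How often each line is at an extreme over all genes was not counted, so these counts describe the 10 genes only. It was lowest for Cish, Pim2 and Pim3 and highest for Osm, Bcl6 and Gadd45g. Its Cish signal of 8.09 lay below the other 8 lines, at 9.01 to 9.58, and below both parental arrays. For Gadd45g it had 9.79, against 8.13 to 9.46 in the other lines, and for Bcl6 7.66, against 6.24 to 7.45. For Pim3 it had 6.83, against 7.32 to 8.24. The same line was lowest in 6 of 7 Cish probe sets and 11 of 16 Pim3 probe sets, and highest in 6 of 6 Gadd45g and 7 of 9 Bcl6 probe sets. Line 5 was nearest to it for Gadd45g and Bcl6, at 9.46 and 7.45, while its Cish, at 9.42, was above the median of the lines. With 1 array for each mutant, a mutant and its culture cannot be told apart.

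**Figure D4:**
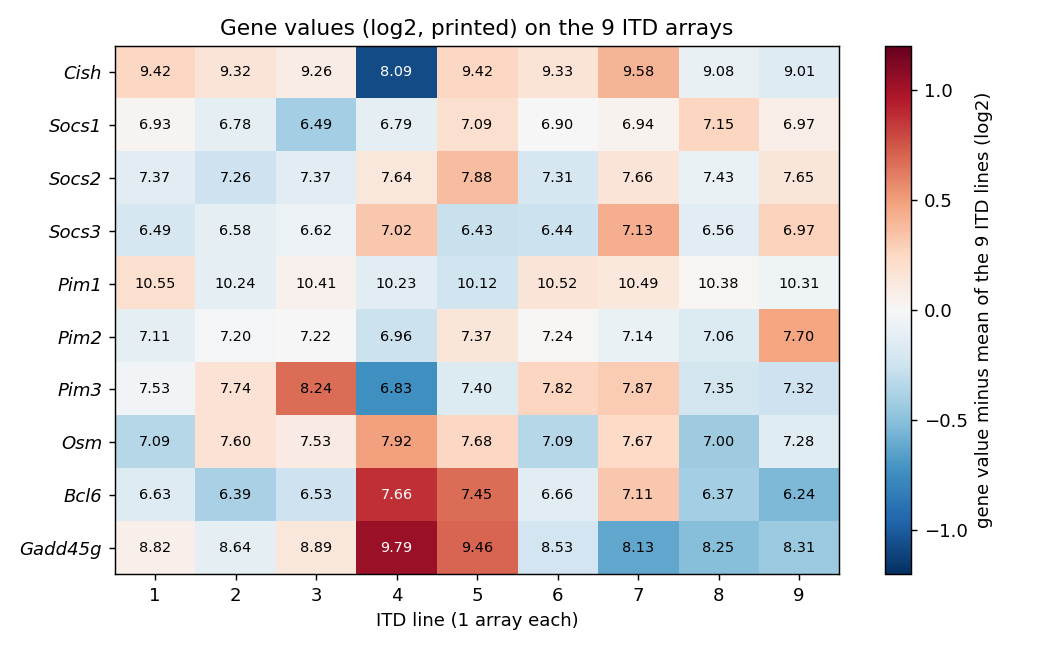
Log2 value of each gene (down the page) in each of the 9 ITD lines (across, 1 array each), printed in the cells and coloured by its difference from the mean of the 9 lines, blue for lower and red for higher. Line 4 has the strongest colours, with Cish at 8.09 and Gadd45g at 9.79.

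Pairs of the 10 genes were correlated over the 9 ITD lines, 45 pairs in all, with exact permutation tests. None passed Benjamini-Hochberg adjustment, the smallest adjusted p being 0.492 for Pearson and 0.949 for Spearman. The strongest Pearson values were 0.74 for Cish and Pim3 (exact permutation p = 0.0282, rho 0.60, p = 0.0968), 0.73 for Bcl6 and Gadd45g (p = 0.0268, rho 0.52, p = 0.162) and 0.72 for Osm and Bcl6 (p = 0.0328, rho 0.67, p = 0.0589). Without the 2 lines farthest from the median of the first gene the values were 0.16, -0.21 and 0.73, so the first pair and the second rested on those lines.

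The upstream pathway was described from a list of cytokine receptor, JAK and STAT genes, of which 15 of 16 were measured. In ITD lines against wild-type cells 3 were higher and 1 lower, where 7.71% of all genes were called. Stat5a, which encodes the factor itself, was 10.16 in ITD lines and 9.58 in wild-type cells, a difference of 0.58 ± 0.11 (adjusted p = 0.00361), and wild-type minus vector was -0.90 ± 0.14 (adjusted p = 0.00097). Against parental cells 0 were higher and 5 lower in ITD lines, beside 10.3% of all genes higher and 6.72% lower. The IL-3 receptor subunit Il3ra differed by -0.99 ± 0.14 in ITD lines (adjusted p = 0.000111), and by -0.98 ± 0.18 in vector against parental cells (adjusted p = 0.00655). Csf2rb2 and Csf2rb, the near-identical beta chains of mouse IL-3 receptors, differed from parental cells by -1.57 ± 0.23 and -1.10 ± 0.30 in ITD lines (adjusted p = 0.000169 and 0.0157). Csf2rb2 was higher in ITD lines than in ligand cells (0.88 ± 0.23, adjusted p = 0.0337) and wild-type cells (1.16 ± 0.23, adjusted p = 0.0056) by limma. As these genes are close paralogs, their signals may not be separate.

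Other known STAT5 targets (12 of 12 measured) were higher in 5 and lower in 0 cases in ITD lines against parental cells, beside 10.3% of all genes higher and 6.72% lower. In ligand against parental cells 7 were higher and 0 lower, beside 10.7% of all genes higher and 4.66% lower. Id1, an inhibitor of differentiation, was 9.66 in ITD lines and 8.51 in parental cells (1.14 ± 0.14, adjusted p = 3.19e-05), and Bcl2l1, which encodes the survival protein BCL-XL, was 7.39 in ITD lines and 6.51 in parental cells (0.87 ± 0.13, adjusted p = 0.000235). Il2ra, the alpha chain of the IL-2 receptor, was 7.65 in ITD lines and 4.80 in parental cells (2.86 ± 0.89, adjusted p = 0.0365). Its mean was 9.34 in ligand and 8.80 in wild-type cells, and its parental value lay near the signal threshold of 4.599. In ITD lines against wild-type cells, where 7.71% of all genes were called, 1 was higher and 1 lower. Myc was higher at 0.55 ± 0.11 (adjusted p = 0.00551) and the transcriptional repressor gene Gfi1 lower at -0.99 ± 0.19 (adjusted p = 0.00476) by limma. Against vector cells 3 were higher and 1 lower, beside 8.82% of all genes higher and 5.21% lower, with Gfi1 at 7.83 in ITD lines and 9.51 in vector cells (-1.69 ± 0.19, adjusted p = 3.37e-05).

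Other negative regulators of cytokine signalling formed a further list (16 of 16 measured). In ITD lines against parental cells 3 were higher and 1 lower, beside 10.3% of all genes higher and 6.72% lower. The higher ones included Ptpn2 (0.40 ± 0.10, adjusted p = 0.01), a phosphatase of JAK and STAT proteins, and Socs4 (0.36 ± 0.10, adjusted p = 0.0221). Ptpn2 was also called higher in ligand (0.89 ± 0.13) and wild-type cells (0.69 ± 0.13) than in parental cells. ITD minus ligand for Ptpn2 was -0.49 ± 0.10 and called (limma adjusted p = 0.00661). The lower one in ITD lines against parental cells was Ptprc, which encodes the phosphatase CD45 (-0.59 ± 0.12, adjusted p = 0.00283). Ptprc was also lower in ITD lines than in wild-type cells (-0.48 ± 0.12, adjusted p = 0.023), the 1 gene of the list called there, with 0 higher. Among relatives and receptors of the 10 genes (8 of 8 measured), 1 was called in any comparison, Gadd45b, at 8.04 in ITD lines and 8.64 in vector cells (-0.60 ± 0.14, adjusted p = 0.00888).

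Over the order of the 5 group means no neighbouring pair was called in any of the 10 genes. For Cish, Socs2, Socs3, Pim1, Osm and Bcl6 the called pairs were farther apart in the order, and for Socs1, Pim2, Pim3 and Gadd45g no pair was called. For Cish the order was ligand, wild-type, ITD, vector and parental cells, highest first. As a description, the genes most like each member were sought among 15413 genes by Pearson r over the 17 arrays, which share their groups and normalisation. Cish was most like Sh3pxd2a (r = 0.947) and Acy1 (r = 0.917), Osm like Azin1 (r = 0.938) and Tapt1 (r = 0.937), and Bcl6 like Rit1 (r = 0.931) and Zfyve1 (r = 0.929). Socs2 was most like Hspe1 (r = 0.922), Gadd45g like Tspan32 (r = 0.905) and Socs3 like Imp3 (r = 0.889). The closest genes to Pim1, Pim2, Pim3 and Socs1 were Capn15 (r = 0.852), Krt26 (r = 0.845), Tspan13 (r = 0.842) and Spaca1 (r = 0.853).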

How the data were processed

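The deposited values are on the log2 scale, 1 signal for each probe set and array. According to the submitters' processing notes the authors used Affymetrix Expression Console 1.1 and RMA, a method that corrects background, makes the arrays' distributions alike and combines probes, so that shifts shared by all genes are removed. The genome build and probe set filter are not given in the sources used here. Array medians lay at 4.63 to 4.69. Precision is limited by how few arrays there are. Of 1256831 probe sets, 325444 had a gene symbol, 6684 of them several and left out. Symbols were updated through a RefSeq table (4227 changed, 63 unmatched), and 237584 probe sets above the threshold gave 20227 genes, 1987 of them with 1 probe set.

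A model with 5 group means was fitted to every gene on all 17 arrays (limma 3.58.1, R 4.3.3, lmFit and eBayes with a trend, two-sided), with 12 residual and 4.49 prior degrees of freedom, for 10 pairwise comparisons. The procedure was tested on simulated data. Correlations and figures used Python 3.11.15 with scipy 1.17.1. No scan dates were used and no batches are known. All 10 members are named in every comparison they were called in. From each context list up to 3 called genes per comparison were eligible, and the 2 most similar genes per member. The members, lists, tests and alternatives were chosen with earlier results of these data known. Replicate numbers of control groups did not pair arrays (correlations of deviations -0.118 to 0.092).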

Additional observations from a re-analysis of the deposited data

Results flagged for a closer look

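Cish in ITD line 4 stood apart from the other lines. At 8.09 it was the lowest of the 9 ITD arrays, and its gap to the next, 9.01, was 0.618 of the whole range, past the critical value of Dixon's test for 9 samples. Chance flags about 1 in 20 groups by this test, 7.36% of all genes passed it in the ITD lines, and 1 of the 10 genes did. Whether the mutant or the culture of line 4 accounts for it was not tested.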

How the results depend on the processing

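Numbers of the 10 genes called are given as alternative against the count in the report. Without a filter on dim probe sets 3 were called for ligand minus parental (6) and 1 for wild-type minus parental (4). A stricter filter gave 2 for ITD minus ligand (0), 3 for ligand minus vector (1), 1 for vector minus parental (0), 1 for wild-type minus vector (0) and 2 for variation among ITD lines (1). The median of probe sets gave 3 for ITD minus parental (5), 3 for ligand minus parental, 1 for wild-type minus parental and 0 for variation. The brightest probe set, added after seeing the data, gave 1 each for ITD minus wild-type and ITD minus ligand, 2 for ligand minus vector, wild-type minus vector and wild-type minus parental, and 0 for variation. Repeated quantile normalisation gave 2 for variation, centring on array medians 2 for ligand minus vector and for wild-type minus parental, and eBayes without a trend 2 for wild-type minus parental. With only the 2 groups compared, counts were 1 for ligand minus wild-type, 5 for ligand minus vector, 4 for wild-type minus vector, 8 for wild-type minus parental and 4 for vector minus parental. Array weights gave 2 each for ITD minus wild-type, ITD minus ligand, vector minus parental and wild-type minus vector, 4 for ligand minus vector and 8 for wild-type minus parental. The 8 control arrays alone with a replicate block gave 1, 5, 4, 8 and 5 in the order ligand minus wild-type, ligand minus vector, wild-type minus vector, wild-type minus parental and vector minus parental, and without the replicate block 1, 5, 4, 9 and 5. Ligand minus parental gave 9 in both. The numbers share no stated culture. Leaving out 1 array at a time, counts ran 0 to 0 for ITD minus wild-type, 0 to 1 for ITD minus ligand, 1 to 3 for ITD minus vector, 1 to 6 for ITD minus parental, 0 to 0 for ligand minus wild-type, 0 to 3 for ligand minus vector, 2 to 7 for ligand minus parental, 0 to 1 for wild-type minus vector, 0 to 5 for wild-type minus parental, 0 to 1 for vector minus parental and 0 to 2 for variation. Where that left 1 array in a group, it was assumed to vary like the others. Cish in ITD minus wild-type changed sign, to 0.07 (stricter filter), 0.10 (median), 0.01 (quantile), 0.05 (array weights) and between -0.08 and 0.11 with single arrays left out. Socs2 in ITD minus wild-type changed sign to 0.04 without a filter and 0.14 with the median. With the brightest probe set Socs1 in ITD minus wild-type was 0.01 and Socs3 in ITD minus parental -0.01. The cause was not tested, except that fewer arrays were fitted in the settings that drop some.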
